A study of Mus musculus with 10 samples.

Results

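The enzymes that hydroxylate collagen and cross-link it were described in cardiac tissue of mice lacking HIPK2, a nuclear kinase that phosphorylates transcription factors and their partners. The 10 genes are the lysyl oxidases Lox, Loxl1, Loxl2, Loxl3 and Loxl4, the lysyl hydroxylases Plod1, Plod2 and Plod3, and the prolyl 4-hydroxylase catalytic subunits P4ha1 and P4ha2. Every probe that the array names for one of them was taken, whatever its value, which gave 19 of the 56605 probes. The groups were 5 samples of HIPK2-/- knockout tissue and 5 of wild-type tissue, all from male C57BL/6 mice. Per the series description, the knockout came from CRISPR injection of embryos and carries a frameshift deletion of 56 bases in the second exon of Hipk2, a germline allele that is not limited to heart cells. The labels give no age and no region of the heart, and no treatment beyond standard housing. They number the replicates without saying that each is a separate mouse, so p-values here measure the spread between these samples.

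Fibrillar collagen is modified in the endoplasmic reticulum before it is secreted. Prolyl 4-hydroxylases modify proline residues, which keeps the triple helix stable at body temperature, and lysyl hydroxylases modify lysine residues that later take part in cross-links. Outside the cell, the copper-dependent lysyl oxidases convert lysine and hydroxylysine side chains of collagen and elastin to reactive aldehydes, from which the covalent cross-links form. In the heart, fibroblasts make most of the fibrillar collagen, and the number and kind of its cross-links bear on the stiffness of the wall.

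Total RNA was hybridised on 1-colour arrays, and levels are given as log2 signal relative to each array's 75th percentile, so a value of 0 lies at that percentile. The 75th percentile itself ran from 286 to 460 on knockout arrays and from 462 to 542 on wild-type arrays. The share of spots well above background ran from 45.8% to 58.3% on knockout arrays and from 55.7% to 60.4% on wild-type arrays. No spot was saturated. The 10 arrays lay on 2 slides. Slide 1 held wild-type replicates 1 and 2 in its row 2. Slide 2 held knockout replicate 1 with wild-type replicates 3, 4 and 5 in row 1, and knockout replicates 2 to 5 in row 2. All 9 cardiomyocyte markers were measured, and their mean log2 level was 8.41 ± 0.17 in knockout tissue, against 8.01 ± 0.21 in wild-type tissue (SD over the 5 arrays of each genotype), so the labelled tissue carried its defining transcripts. The 3 Hipk2 probes differed by -0.01 to 0.11 on the log2 scale (limma adjusted p = 0.473 or more), and each shares at most 6 bases in a row with the deleted stretch, so they do not check the genotype.

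The lysyl oxidases are related proteins, so the probes were first compared with each other as sequences. Each probe is 60 bases long. The longest run that a probe has in common with a probe of another of the 10 genes was 6 to 9 bases. The probes were not compared with the transcripts of the other genes, so these runs do not test cross-hybridisation. A probe from 5 of the genes is shown here because cross-hybridisation between related genes would blur every comparison that follows. Each is read 5′ to 3′ as the array file gives it, and the capitals mark the longest run it has in common with a probe of another of the genes.
Loxl1 probe 1, mm9 chr9:58138570-58138629, minus strand: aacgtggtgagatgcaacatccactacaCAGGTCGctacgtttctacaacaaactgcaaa
Loxl2 probe 2, mm9 chr14:70090017-70090076, plus strand: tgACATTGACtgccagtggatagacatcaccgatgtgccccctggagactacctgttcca
Loxl3 probe 1, mm9 chr6:83000426-83000598, plus strand: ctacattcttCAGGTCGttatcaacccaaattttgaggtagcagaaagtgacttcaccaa
Plod3 probe 2, mm9 chr5:137466696-137466864, plus strand: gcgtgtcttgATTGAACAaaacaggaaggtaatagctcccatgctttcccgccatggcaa
P4ha1 probe 2, mm9 chr10:58802114-58805464, plus strand: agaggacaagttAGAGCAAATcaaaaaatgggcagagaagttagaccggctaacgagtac
The run of 7 capitals in the Loxl1 and Loxl3 probes is the same run. The intervals of the last 3 probes span 173, 169 and 3351 bases of genome, more than the probe itself, so each of these probes joins stretches that are apart in the genome. Exon and untranslated-region annotation of mm9 was not used here.

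Testing required signal well above background on 4 or more of a genotype's 5 arrays, in either genotype. Of the 19 probes, 15 were tested, and they cover 9 of the 10 genes. The 4 left out were the 3 Loxl4 probes and P4ha2 probe 2. In limma, 3 of the 15 had an adjusted p under 0.05, against 4.44% of all 30692 tested probes (2.76% lower, 1.69% higher). Lox probe 1 fell in knockout and Plod2 probe 1 rose. The other was Lox probe 2, which cleared background on no knockout array and entered the test through wild type alone, so it is not read as a separate fall. Of the 15, 11 were well above background on all 10 arrays. Tested among such probes alone, 1 of the 11 fell (3.34% of all 23301) and 1 rose (3.28%). The difference was below 0 for 9 of these 11, with a median of -0.19, against 45.1% below 0 and a median of 0.03 among all 23301. It was also below 0 for 9 of the 11 with normexp background correction and with quantile normalization. Knockout and wild-type arrays did not overlap for 2 of the 15, 1 with every knockout array lower (4.41% of all probes) and 1 with every knockout array higher (4.09%).

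**Figure D1:**
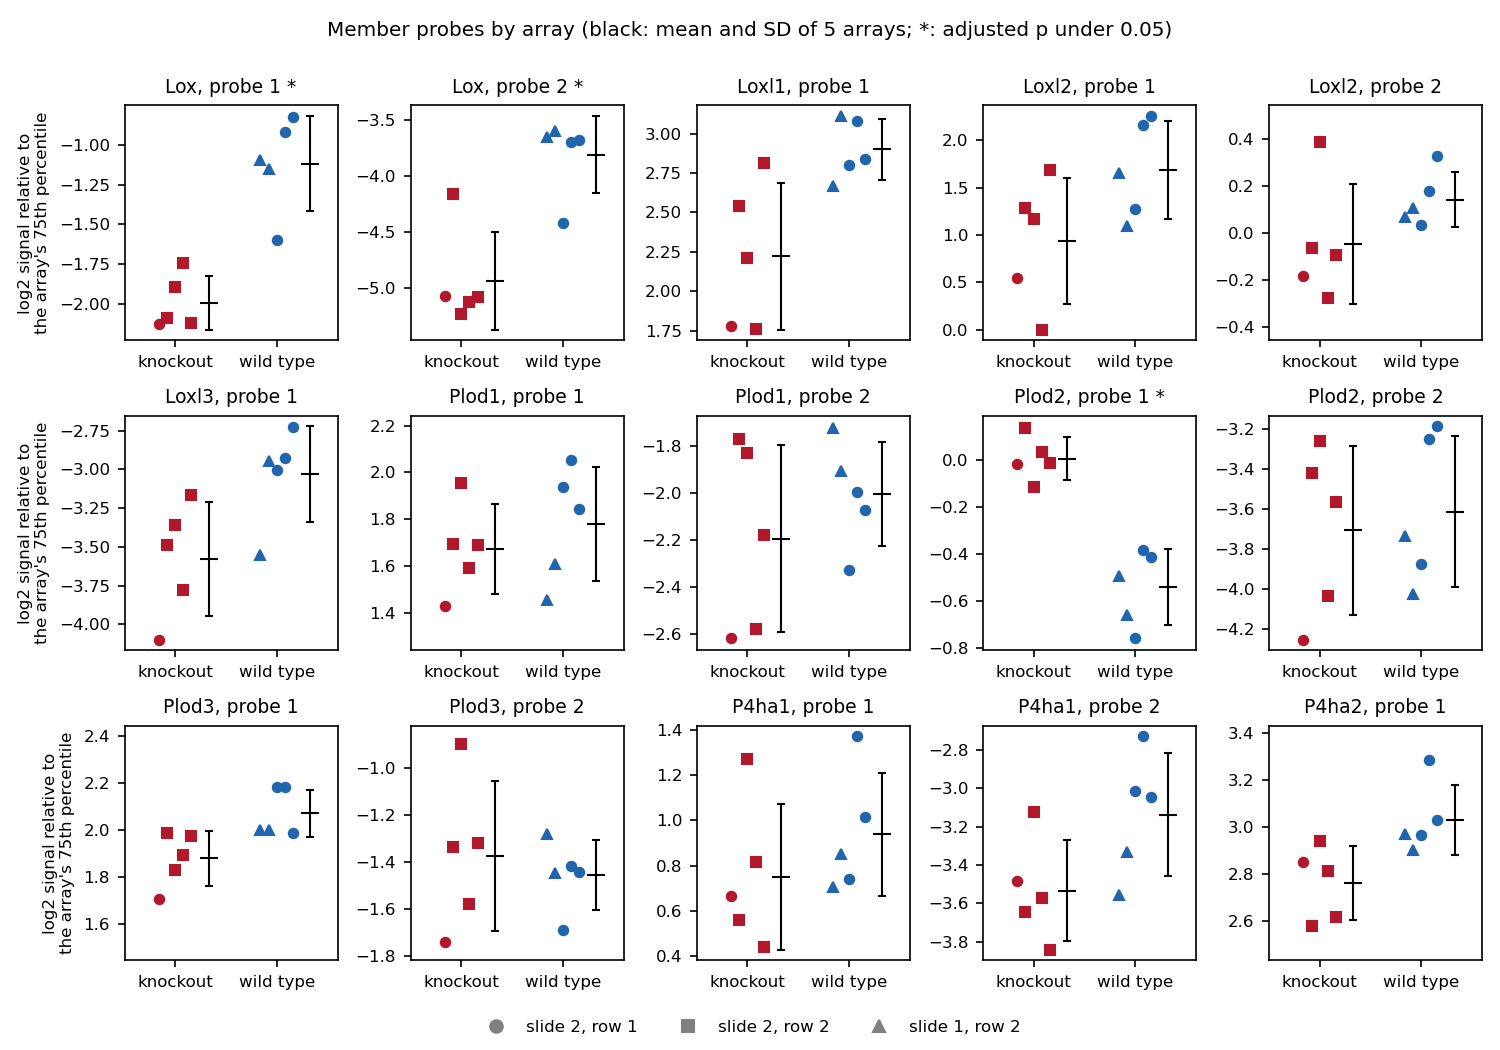
Log2 signal of the 15 tested probes on each array, relative to the array's 75th percentile, with knockout (red) left of wild type (blue), symbols for slide and row, and black bars for mean and SD of 5 arrays. Lox probe 1 and Plod2 probe 1 are the probes whose genotypes do not overlap, and knockout replicate 2 stands above the other knockout arrays on Lox probe 2.

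Lox, the founding lysyl oxidase, was lower in knockout tissue. Its brighter probe, probe 1 (mm9 chr18:52675748-52675807), read -2.13, -2.09, -1.90, -1.75 and -2.12 on knockout arrays, against -1.10, -1.16, -1.60, -0.92 and -0.82 on wild-type arrays. The genotypes do not overlap, and wild-type replicate 3 came nearest to the knockout arrays, which were all lower. The signal was 1.84-fold lower in knockout, a difference of -0.88 ± 0.15 on the log2 scale (SE; 95% interval -1.20 to -0.55; limma adjusted p = 0.0157, n = 5 each). The call survived the removal of any single array (highest adjusted p = 0.0445, without wild-type replicate 5). Within slide 2 alone, 5 knockout against 3 wild-type arrays, the difference was the same size at -0.88 but missed the threshold (adjusted p = 0.0554). Within row 1 it was -1.01, and between the row 2 arrays, which lie on different slides, it was -0.84. With normexp background correction the difference was -0.57 (adjusted p = 0.0133).

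Lox probe 2 (mm9 chr18:52676912-52676971) was dim. It read -5.08, -4.16, -5.23, -5.13 and -5.09 on knockout arrays, against -3.65, -3.60, -4.42, -3.70 and -3.68 on wild-type arrays. It was well above background on all 5 wild-type arrays and on no knockout array. Knockout replicate 2 and wild-type replicate 3 overlap. Its knockout level is therefore only a bound, which makes the signal at least 1.12-fold lower in knockout (limma adjusted p = 0.0257 on the measured values). For the bound, a knockout array counts at its own probe signal or at the dimmest signal that cleared background there, whichever is larger. The adjusted p was above 0.05 without knockout replicate 1 or 4 and without wild-type replicate 2, 4 or 5 (highest 0.0623). With normexp background correction the difference was -0.02 (adjusted p = 0.916). The fall of Lox is thus read from probe 1 alone.

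None of the other tested lysyl oxidase probes passed, though all 4 were lower on average in knockout. Both Loxl2 probes are among these 4. The Loxl3 probe entered the test through wild type alone, so its lower value is not read as a separate fall. Loxl1, which acts on elastin, read 1.78, 2.54, 2.21, 1.76 and 2.81 on knockout arrays, against 2.67, 3.11, 2.80, 3.08 and 2.84 on wild-type arrays. Knockout replicate 5 reached into the wild-type range while the other 4 knockout arrays lay below it. The difference was -0.68 ± 0.20 (95% interval -1.13 to -0.23; limma adjusted p = 0.0777). It passed with normexp background correction (-0.72, adjusted p = 0.0273) and without knockout replicate 5 (-0.83, adjusted p = 0.0388).

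Loxl2, a lysyl oxidase that also acts on basement membrane collagen, has 2 probes. Probe 1 (mm9 chr14:70095254-70095313) averaged 0.94 ± 0.66 in knockout and 1.69 ± 0.52 in wild type, a difference of -0.75 ± 0.33 (SE; adjusted p = 0.179). Probe 2 averaged -0.04 ± 0.26 in knockout and 0.14 ± 0.12 in wild type, a difference of -0.19 ± 0.13 (adjusted p = 0.360). Both sets of values overlap between genotypes. Probe 1 showed the widest SD of the 15 tested probes in both genotypes.

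Loxl3, which is less studied in the heart, was close to background and cleared it on 3 knockout arrays and all 5 wild-type arrays. It averaged -3.58 ± 0.37 in knockout, against -3.03 ± 0.31 in wild type. The difference was -0.55 ± 0.20 (limma adjusted p = 0.115), and wild-type replicate 1 lay within the knockout range. With normexp background correction it was -0.04 (adjusted p = 0.779). Loxl4 had no usable signal: its 3 probes were well above background on no knockout array and on 3, 1 and 0 wild-type arrays, so no fold is given.

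Plod2, the lysyl hydroxylase that modifies the ends of the collagen chain and thereby the kind of cross-link formed, ran the other way. Its brighter probe, probe 1 (mm9 chr9:92502483-92502542), read -0.02, 0.14, -0.11, 0.04 and -0.01 on knockout arrays, against -0.49, -0.66, -0.76, -0.38 and -0.41 on wild-type arrays. All knockout arrays lay above all wild-type arrays, and the knockout arrays were tightly grouped with an SD of 0.09 against 0.16 in wild type. Signal was 1.46-fold higher in knockout, a difference of 0.55 ± 0.10 (SE; 95% interval 0.34 to 0.76; limma adjusted p = 0.0180, n = 5 each). This call, too, survived the removal of any single array (highest adjusted p = 0.0485, without wild-type replicate 2). Within slide 2 the difference was 0.53 and missed the threshold (adjusted p = 0.0612). It was 0.50 within row 1 and 0.59 between the row 2 arrays. It was 0.52 with normexp background correction (adjusted p = 0.00667).

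Plod2 probe 2 (mm9 chr9:92497396-92497455) is annotated to an Ensembl transcript and was dim, clearing background on 3 knockout arrays and all 5 wild-type arrays. It averaged -3.71 ± 0.42 in knockout and -3.61 ± 0.38 in wild type, a difference of -0.09 ± 0.23 (95% interval -0.59 to 0.41; adjusted p = 0.825). With normexp background correction it turned to 0.22 (adjusted p = 0.169). The rise of Plod2 was thus seen by 1 of its 2 probes. Plod1, which modifies lysines within the helix, differed by -0.11 ± 0.13 at probe 1 (adjusted p = 0.641) and by -0.19 ± 0.19 at probe 2 (adjusted p = 0.547). Plod3, which also adds glucose to hydroxylysine, averaged 1.88 ± 0.12 in knockout and 2.07 ± 0.10 in wild type at probe 1, a difference of -0.19 ± 0.09 (adjusted p = 0.194). At its probe 2 the difference was 0.08 ± 0.15 (adjusted p = 0.760). None of these 4 probes passed the test.

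The prolyl 4-hydroxylase subunits did not pass the test either. P4ha2 probe 1 (mm9 chr11:53945032-53945091) read 2.85, 2.58, 2.94, 2.81 and 2.61 on knockout arrays, against 2.97, 2.90, 2.96, 3.28 and 3.03 on wild-type arrays. Only knockout replicate 3 reached into the wild-type range. The difference was -0.27 ± 0.11 (95% interval -0.50 to -0.04; limma adjusted p = 0.141), and it passed with normexp background correction (-0.33, adjusted p = 0.0390). P4ha1 averaged 0.75 ± 0.32 in knockout and 0.94 ± 0.27 in wild type at probe 1 (difference -0.19 ± 0.17, adjusted p = 0.519). At its dim probe 2, which cleared background on 3 knockout arrays, the difference was -0.40 ± 0.17 (adjusted p = 0.174), and it turned to 0.04 with normexp background correction (adjusted p = 0.840).

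**Figure D2:**
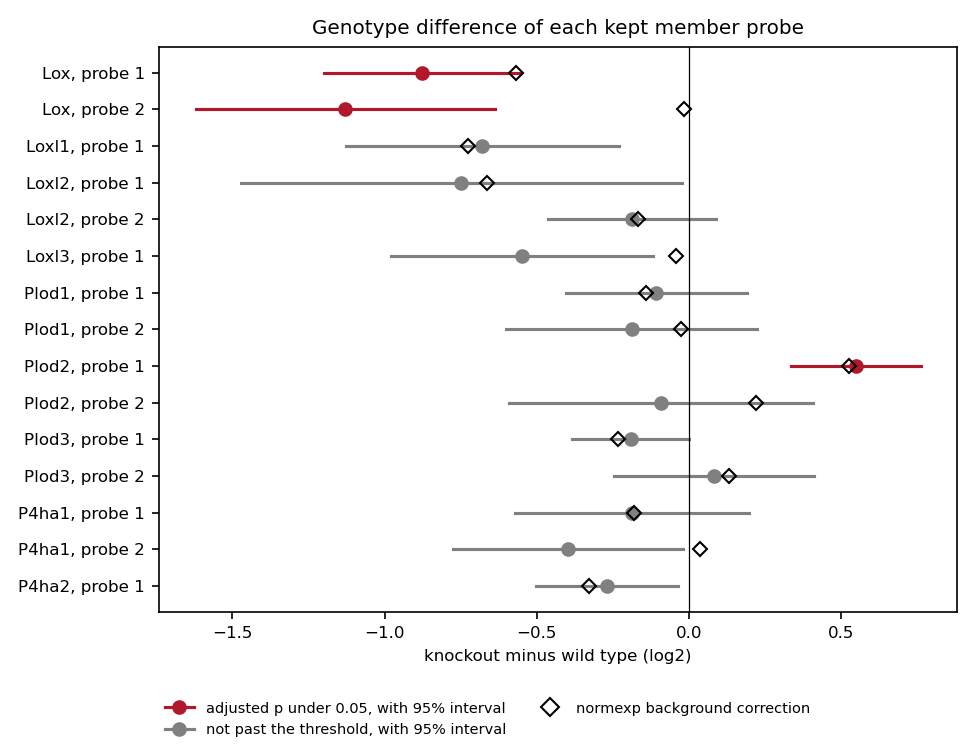
Knockout minus wild type on the log2 scale for the 15 tested probes, as circles with 95% intervals (red where the adjusted p is under 0.05), and the same difference with normexp background correction as open diamonds. Circle and diamond lie close together for Plod2 probe 1, while Lox probe 2, whose knockout level is only a bound, reads -1.13 as a circle and -0.02 as a diamond.

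For 6 genes with more than 1 tested probe, it was asked whether the genotype difference itself differed between the probes. The Lox pair cannot be read, since its probe 2 has only a bound in knockout. None of the other 5 pairs passed, against 0.314% of the 10204 such pairs on the array. Plod2 came nearest: the difference at probe 2 was lower than that at probe 1 by 0.64 on the log2 scale, written -0.64 ± 0.21 (95% interval -1.10 to -0.18; unadjusted p = 0.0107, limma adjusted p = 0.181). It was -0.31 with normexp background correction (adjusted p = 0.110), and probe 2 cleared background on 3 knockout arrays only. The corresponding values were 0.56 for Loxl2, 0.27 for Plod3, -0.08 for Plod1 and -0.21 for P4ha1. Those of Plod1 and P4ha1 turned to 0.11 and 0.22 with normexp.

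Endothelial and macrophage marker scores were lower in knockout and passed adjustment, while the fibroblast score did not pass. The fibroblast marker score, the mean log2 level of 10 markers, was 2.13 ± 0.33 in knockout tissue, against 2.50 ± 0.11 in wild-type tissue (two-sided exact permutation p = 0.0317; 0.0556 after adjustment over the 7 marker lists compared). The macrophage score over 9 markers was 1.68 ± 0.25 in knockout tissue, against 2.04 ± 0.105 in wild-type tissue (exact permutation p = 0.0159, adjusted 0.0370). The endothelial score over 8 markers was 2.68 ± 0.09 in knockout tissue, against 2.96 ± 0.09 in wild-type tissue (exact permutation p = 0.00794, adjusted 0.0370). With 5 arrays a side no smaller p is possible, and adjusted values are over the same 7 lists. The cardiomyocyte score was higher in knockout (exact permutation p = 0.0159, adjusted 0.0370), but the median difference of its 9 markers shrank from 0.47 to 0.06 with quantile normalization. The smooth muscle and pericyte score over 9 markers was 3.04 ± 0.14 in knockout tissue, against 3.09 ± 0.22 in wild-type tissue (exact permutation p = 0.659, adjusted 0.659). The atrial score over 3 markers was -0.45 ± 1.74 in knockout tissue, against 2.25 ± 3.12 in wild-type tissue (exact permutation p = 0.127, adjusted 0.148). On wild-type replicate 1 it was -3.02, against 2.00 to 4.81 on the other wild-type arrays. The fat score over 4 markers was -4.24 ± 0.81 in knockout tissue, against -2.34 ± 1.67 in wild-type tissue (exact permutation p = 0.0397, adjusted 0.0556), and its markers cleared background on 2 to 4 knockout arrays. With the atrial score as a covariate, Lox probe 1 differed by -0.82 (limma adjusted p = 0.0793) and Plod2 probe 1 by 0.53 (adjusted p = 0.0899). With both atrial and fat scores they differed by -0.90 (adjusted p = 0.164) and 0.45 (adjusted p = 0.222), so both calls were lost. No listed marker of the endothelial, macrophage, fibroblast or cardiomyocyte lists fell under the signal filter. The summed linear level of the fibroblast markers, in multiples of the 75th percentile, ranged from 146 to 234 on knockout arrays and from 181 to 219 on wild-type arrays. That of the macrophage markers ranged from 74.4 to 92.5 on knockout arrays and from 92.6 to 115 on wild-type arrays. In tissue RNA, fewer cells of a type and less RNA per cell cannot be told apart.

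Among arrays of the same genotype, Loxl1 deviated together with the macrophage score. After each genotype's mean was taken off, Loxl1 and the macrophage score correlated at Pearson r = 0.96 over 10 arrays (exact permutation within genotype, p = 0.000417, adjusted over 105 relations of probes and scores 0.0438). Spearman's rho was 0.93 (permutation p = 0.00278, adjusted 0.292), r was 0.93 without the 2 arrays farthest from the median score, and 0.98 over the 8 arrays of slide 2. It was the only 1 of the 105 relations to pass by Pearson's r. Loxl1 and the fibroblast score gave r = 0.945 (permutation p = 0.00222, adjusted 0.117) and rho = 0.92 (permutation p = 0.00826, adjusted 0.343), with r = 0.88 without the 2 farthest arrays and 0.95 on slide 2. Among knockout arrays, replicates 1 and 4 were lowest and replicate 5 highest on both the macrophage and the fibroblast score. The relations of Loxl1 with the 2 scores are therefore not read as separate. The fibroblast score correlated at r = -0.02 with Lox probe 1 (permutation p = 0.940; rho = 0.02, p = 0.973; r = 0.55 without the 2 farthest arrays). It correlated at r = 0.15 with Plod2 probe 1 (permutation p = 0.626; rho = 0.35, p = 0.307; r = 0.40 without them). These 2 relations were not tested against that of Loxl1. Beyond the fits with atrial and fat scores, the part of the cell type markers in the genotype differences was not tested.

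**Figure D3:**
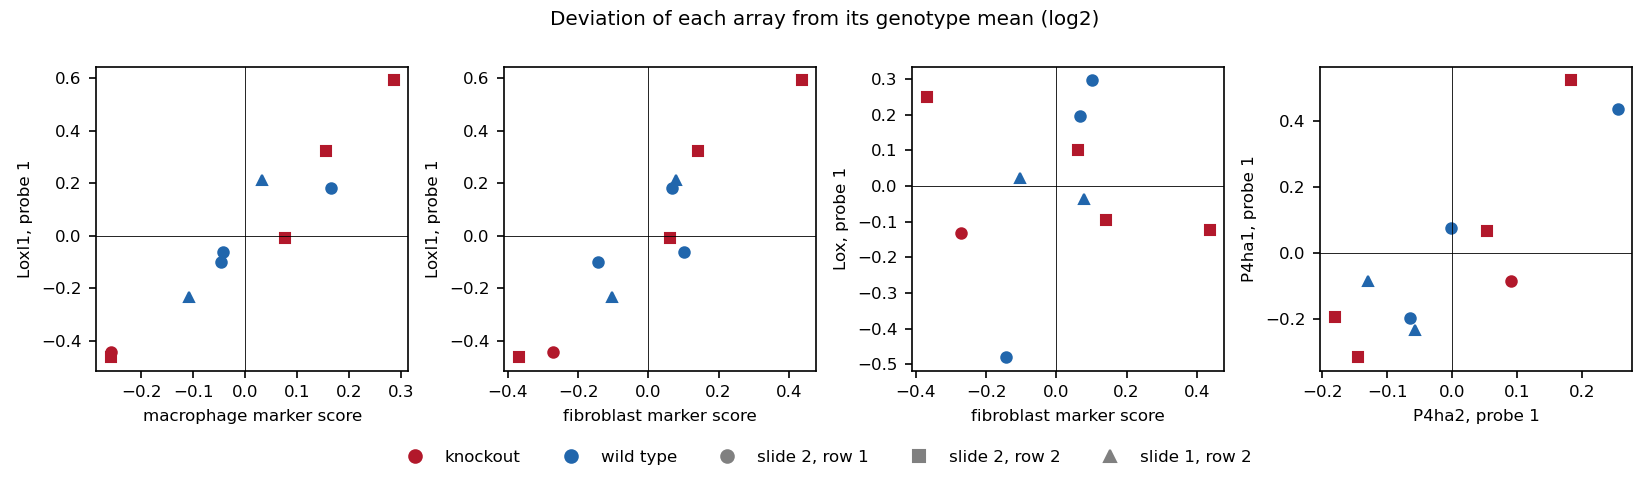
Each point is 1 array, plotted as its deviation from its genotype's mean on the log2 scale, with knockout in red, wild type in blue and symbols for slide and row. Loxl1 lies along a line with the macrophage score (r = 0.96) and the fibroblast score (r = 0.945), Lox is scattered against the fibroblast score (r = -0.02), and P4ha1 lies along a line with P4ha2 (r = 0.87).

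P4ha1 and P4ha2 were the pair with the highest correlation among the 9 genes, each by its brighter probe (Pearson r = 0.87 within genotype, permutation p = 0.00285, adjusted over 36 pairs 0.103; rho = 0.79, permutation p = 0.0110, adjusted 0.374). Without the 2 arrays farthest from the median, r was 0.64, and it was 0.89 on slide 2. No pair passed after adjustment. Several of these enzymes are known as targets of the hypoxia-inducible factors, whose core DNA motif reads ACGTG or GCGTG. Only the form ACGTG was searched, and it is called the motif here. The form GCGTG was neither counted nor marked. RefSeq promoter windows of GRCm38.p6, the 250 bases before the start, were at hand for 5 of the 10 genes. These were Loxl4, Plod1, Plod3, P4ha1 and P4ha2, so Lox and Plod2 had none. The motif or its reverse complement CACGT was found in 3 of the 5 (Plod3, P4ha1 and P4ha2), against 16.6% of 32851 windows. The GC content of the 5 ran from 55.6% to 76.0%, and the 16.6% was not matched for it. The windows of P4ha1 and P4ha2 are shown because these genes made that pair, 5′ to 3′ on the strand of the gene, with the motif in capitals.
P4ha1, GRCm38.p6 chr10:59323046-59323295, plus strand: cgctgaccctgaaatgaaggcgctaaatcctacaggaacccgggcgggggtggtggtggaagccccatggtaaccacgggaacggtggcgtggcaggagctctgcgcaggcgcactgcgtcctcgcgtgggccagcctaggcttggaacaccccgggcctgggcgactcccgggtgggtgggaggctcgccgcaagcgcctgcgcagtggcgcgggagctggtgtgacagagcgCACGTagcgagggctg
P4ha2, GRCm38.p6 chr11:54100674-54100923, plus strand: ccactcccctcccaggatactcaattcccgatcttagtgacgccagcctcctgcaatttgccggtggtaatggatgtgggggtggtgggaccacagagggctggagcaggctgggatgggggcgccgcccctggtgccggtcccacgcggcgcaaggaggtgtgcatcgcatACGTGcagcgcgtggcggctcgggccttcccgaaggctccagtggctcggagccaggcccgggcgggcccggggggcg
The motif begins 16 bases before the start in P4ha1, on the opposite strand, and 78 bases before it in P4ha2. A match is a description of these letters and shows no binding. Of 20 hypoxia-inducible genes measured, none passed the test, and their median difference was -0.07. The smallest p-values were those of Hif3a, which encodes a hypoxia-inducible factor subunit (0.74 ± 0.20, limma adjusted p = 0.0621), and of the angiogenic factor Vegfa (-0.36 ± 0.10, adjusted p = 0.0714).

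Around these enzymes, 6 lists of the collagen pathway and of its known regulators hold 86 measured entries, of which 6 fell in knockout and 0 rose. Over all 20607 genes, each by its brightest tested probe, 2.72% fell and 1.77% rose, and the median difference was 0.03. Of 14 other genes of collagen modification and folding none passed, with a median of -0.07. The collagen prolyl 3-hydroxylase P3h2 (-0.36 ± 0.12, limma adjusted p = 0.109) and the collagen chaperone Serpinh1 (-0.27 ± 0.11, adjusted p = 0.155) had the smallest p-values there. Of 13 genes of procollagen processing and lysyl oxidase activation 1 fell, with a median of -0.12. It was Postn, periostin, a matrix protein that aids activation of lysyl oxidase, at 0.24 ± 0.42 in knockout and 1.24 ± 0.33 in wild type (difference -1.0 ± 0.21, adjusted p = 0.0313).

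Among the substrates, 16 collagen and elastin genes, 2 fell, 14 did not pass and 15 had a value below 0, with a median of -0.52. Col4a1, a basement membrane collagen, averaged 4.07 ± 0.12 in knockout and 4.94 ± 0.14 in wild type (difference -0.87 ± 0.10, limma adjusted p = 0.00561). Col5a1, a collagen that regulates fibril diameter, averaged 1.18 ± 0.40 in knockout and 1.97 ± 0.22 in wild type (difference -0.79 ± 0.19, adjusted p = 0.0417). Of 9 genes of other matrix cross-linking 1 fell, the transglutaminase subunit F13a1, at 1.09 ± 0.42 in knockout and 2.22 ± 0.59 in wild type (difference -1.13 ± 0.28, adjusted p = 0.04997). Their median was -0.12. Of 14 genes that respond to TGF-beta 2 fell, with a median of -0.08. They were Skil, a repressor of SMAD signalling (-0.57 ± 0.11, adjusted p = 0.0220), and thrombospondin 1, Thbs1, which activates latent TGF-beta (-1.56 ± 0.34, adjusted p = 0.0344).

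Of these 6 calls, that of Col4a1 survived the removal of any single array and held within slide 2 (adjusted p = 0.0128), and the other 5 were lost within slide 2. F13a1 lost its call whichever array was left out. Postn was lost without knockout replicate 1, 2 or 4 or wild-type replicate 2, 4 or 5, and Skil without knockout replicate 2 or wild-type replicate 2, 4 or 5. Thbs1 was lost without knockout replicate 1, 2, 3 or 4 or wild-type replicate 2, 4 or 5, and Col5a1 kept its call only without knockout replicate 5 or wild-type replicate 1. With normexp background correction 24 of the 86 entries passed. Calls rose over the whole array as well, to 4517 probes with normexp, against 1364 of 30692 tested probes in the setting used. The rise in calls was thus not limited to these lists. Among cell type markers, the fibroblast gene Mfap5 fell (-1.05 ± 0.15, limma adjusted p = 0.00947), as did the endothelial genes Kdr (-0.80 ± 0.13, adjusted p = 0.0161) and Emcn (-0.41 ± 0.10, adjusted p = 0.0466). Of the 10 fibroblast markers 9 did not pass, and only 7 had a value below 0. Of the 8 endothelial markers 6 did not pass, and all 8 had a value below 0. Emcn lost its call whichever array was left out. No macrophage, cardiomyocyte, smooth muscle, atrial or fat marker passed.

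**Figure D4:**
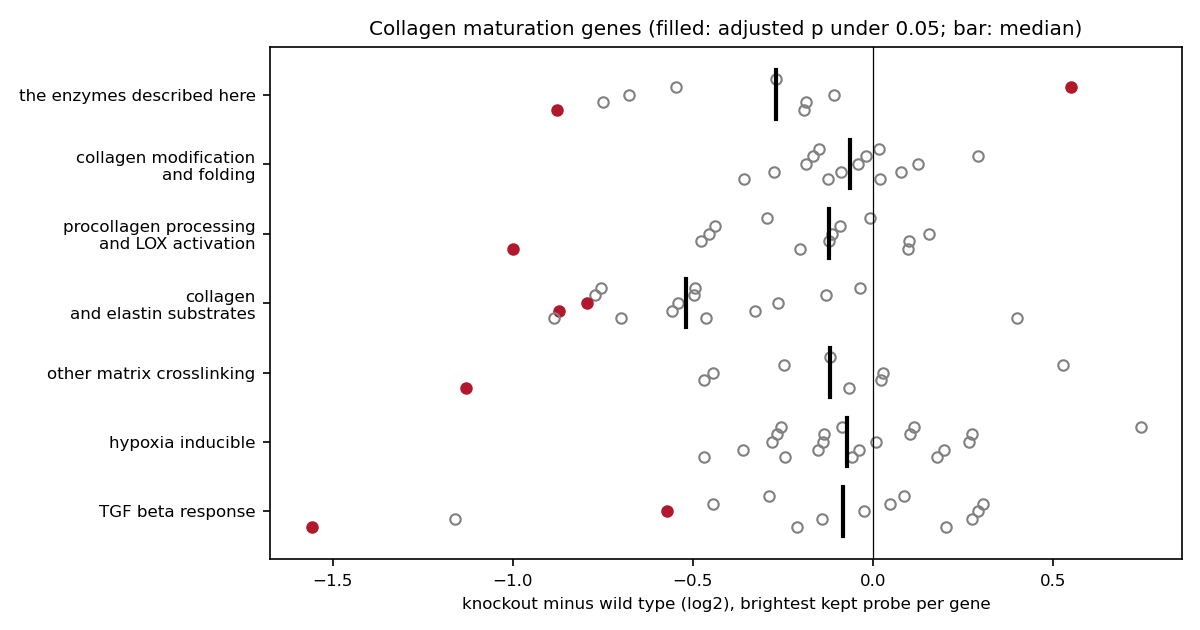
Knockout minus wild type on the log2 scale, 1 circle per gene by its brightest tested probe, for the enzymes described here and 6 lists around them, with filled red circles for an adjusted p under 0.05 and a black bar at each median. Collagen and elastin genes have the lowest median, -0.52, and Plod2 is the only filled circle to the right of 0.

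The genes whose arrays deviated most like those of Lox within genotype were Pde12 (Pearson r = 0.92 over 10 arrays), Prss51 (r = 0.90) and Eif4ebp2 (r = 0.88). Those most like Plod2 were Nrbf2 (r = 0.93), Srrt (r = 0.92) and Tmem185a (r = 0.90). These are the highest among the 20607 genes after some were left out. Left out were clone, predicted-gene and accession names, and probes without a value on every array. The 6 genes are given as a description, and none of them passed the test between genotypes.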

How the data were processed

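The authors' deposited array files hold spot intensity from Agilent Feature Extraction 10.7.1.1, a version taken from the submitters' processing notes, and per the file headers it was background-subtracted within each array and not scaled between arrays. The authors also deposited a log2 value table, used as an alternative, and how it was made is not given in the sources used here. Its differences were nearly those of quantile normalization, at -0.90 in both for Lox probe 1 and 0.54 against 0.55 for Plod2 probe 1. Here the log2 of the processed signal minus the log2 of the array's 75th percentile over 59305 non-control spots was used. Control and outlier spots were dropped and spots of a probe averaged, and 30692 probes passed the signal filter. Probe positions come from the array files (mm9). Of the 19 probes, 16 have an accession in the RefSeq table of GRCm38.p6, and promoter windows are RefSeq's.

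Genotypes were compared with limma 3.58.1 (lmFit and eBayes, R 4.3.3) over all tested probes, without covariates, with Benjamini-Hochberg adjustment and a threshold of 0.05, and probe pairs of a gene likewise over 10204 pairs. The limma fit was tested on simulated data. Correlations across arrays used all 14400 rearrangements within genotype, and score comparisons the 252 arrangements of 10 arrays. The genes, lists, tests and naming rule were chosen with earlier results of these data known. Named genes are all 10 enzymes, Hipk2, up to 4 genes past the threshold per list (or 2 with the smallest p where none passed), and the 3 genes most correlated with Lox and with Plod2. Alternatives were normexp background correction (offset 50), quantile normalization, the deposited table, other filters, slide, row, replicate number, atrial and fat scores as terms, arrays left out, and 1 probe per gene. For arrays, the number of samples limits the precision.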

Additional observations from a re-analysis of the deposited data

Results flagged for a closer look

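Lox probe 2 held a stray array in each genotype. Knockout replicate 2 read -4.16, against -5.23 to -5.08 on the other 4 knockout arrays, and wild-type replicate 3 read -4.42, against -3.70 to -3.60 on the other 4 wild-type arrays. Both lay toward the other genotype. As a share of the range of the 5 arrays, the gaps were 0.86 and 0.88. Both shares exceed Dixon's 95% critical value of 0.71 for 5 samples. The mean endothelial marker level of knockout replicate 1 was 2.52, against 2.70 to 2.76 on the other 4 knockout arrays. The check was made on 52 groups of 5 arrays, and chance alone marks about 1 in 20 such groups.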

How the results depend on the processing

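Of 3 probes under the threshold, 2 lower and 1 higher, 1 of the lower is Lox probe 2, whose knockout level is only a bound, so the counts that include it say nothing about stability. None passed, 0 lower and 0 higher, with no filter on dim probes, on slide 2 arrays only, with slide and row as fixed terms, and with the atrial score or the atrial and fat scores as covariates. With the filter requiring signal on all 10 arrays, with slide as a block, and with 1 probe per gene, 1 was lower. Lox probe 1 ranged from -1.01 to -0.57 over 22 alternatives and passed in 16, and Plod2 probe 1 ranged from 0.45 to 0.59 and passed in 16 of 22, so neither changed direction. For each of these 2 probes, 10 of the 16 passes were fits with 1 array left out. The deposited table and quantile normalization, which gave nearly equal values, were counted apart. Leaving out 1 array at a time gave 2 to 4 probes, 1 to 3 lower and 1 to 1 higher, 0 to 0 differing probe pairs and 1 to 10 listed genes. With normexp background correction 24 listed genes passed, and 1 probe pair differed, that of Lox, at 0.55 against -0.25 otherwise, which cannot be read for the same reason. Probes called over the array numbered 1364 in the setting used, 4517 with normexp and 522 on slide 2, where 2 listed genes passed. An alternative chosen after seeing the data left out knockout replicates 3 and 4, whose signal was lowest, and gave 1 probe lower and 0 higher. The causes of these changes were not tested, and the fit on slide 2 also rests on fewer arrays.

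With the replicate number as a block, 1 probe passed, 1 lower and 0 higher, and 2 listed genes. The probe that passed was Lox probe 2, whose knockout level is only a bound. Lox probe 1 (limma adjusted p = 0.0549) and Plod2 probe 1 (adjusted p = 0.0605) did not pass there. Same-numbered arrays correlated at -0.10 to 0.06 in their deviations, so the numbers are not taken to pair the samples. Genotype was spread unevenly over slide and row, with knockout replicate 1 alone among knockouts in row 1, which leaves the term for row with little to rest on. Dim probes are limited by background, and Loxl4 could not be tested. The arrays measure transcripts, not collagen cross-links or enzyme protein.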
